A study of Homo sapiens with 15 samples.

Results

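The coating effect after 4 h was the difference in gene expression between MG-63 cells on amine-coated titanium (Ti-TMS-PEI) and on uncoated titanium (Ti-Ref), taken over 8 of the 15 arrays of the series. These were the 4 arrays labelled Ti-TMS-PEI 4h and the 4 labelled Ti-Ref 4h, each with the letters A to D, and all their genes were measured. MG-63 is an established osteosarcoma cell line with osteoblast features, and all groups were this line, unmodified, in serum-containing DMEM. The coating is a polyethyleneimine with trimethoxysilylpropyl groups, a polymer rich in positively charged amino groups, and the study asked what the cells transcribe soon after they meet it. The remaining 7 arrays (4 Ti-TMS-PEI and 3 Ti-Ref, 24 h) were used to see what became of the same genes later. The methods call the arrays quadruplicates from independent experiments and elsewhere speak of technical replicate groups, so the p-values measure the spread between these arrays, which may in part be technical. Only cells attached to the titanium chips were lysed, and a change within cells and a change in the share of cells that express a gene cannot be told apart in such RNA.

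Cells that attach to a surface signal through integrins and growth factor receptors, and both routes feed the RAS, RAF, MEK and ERK kinase cascade. Active ERK switches on immediate early genes, which need no new protein to be transcribed and include transcription factors of the FOS, EGR and NR4A families. A second set of ERK targets limits the cascade itself. Dual specificity phosphatases (DUSP) remove phosphate from the kinases, and Sprouty (SPRY) proteins act upstream, between the receptor and RAS. In bone-forming cells, ERK signaling is known from studies of attachment to implant surfaces as well as from growth factor responses.

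Each array value was the log2 signal of a transcript cluster, a group of probes that represents a gene, and 21448 transcript clusters were tested, of which 17709 carried 1 gene symbol. Array medians lay between 5.79 and 5.86. The osteoblast label was checked on 20 listed markers. Of these, 9 had a mean over the 8 arrays above the median of all transcript clusters (5.83). SPARC, COL1A2, TNFRSF11B and COL1A1 had means from 14.77 to 15.57, and RUNX2, at 6.28, was close to that median. The differentiation markers ALPL (3.90), SPP1 (3.60), SP7 (2.94) and IBSP (2.86) were dim. Of 9 endothelial and 8 adipocyte markers 0 had a mean above that median, and of 16 blood cell markers 2 did (CD14 and CD68). Above it were also 4 of 10 epithelial markers (KRT18, KRT8, KRT19 and CLDN7, up to 9.63), 2 of 11 muscle markers (ACTA1 and DES, up to 10.98) and 1 of 9 neuron markers (GAD1, 8.74). A pair of arrays stood apart from the rest. Ti-Ref C lay at -31.98 on the second principal component, where the other 7 arrays lay between -5.43 and 17.65, and Ti-TMS-PEI A lay at 34.61 on the third, where the others lay between -13.76 and 4.76.

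Calls used the thresholds of the methods: a transcript cluster had to differ over 1.5-fold with p under 0.05 in limma, before and after Benjamini-Hochberg adjustment. After 4 h 9 were called (0.0420% of those tested), 7 higher and 2 lower on Ti-TMS-PEI, each with a gene symbol. Below this level, 943 (4.40%) were higher and 1086 (5.06%) lower at an unadjusted p under 0.05. When each array was centred on its median, the share of higher ones among these went from 46.5% to 61.1%, so the balance of directions over all genes depended on the scaling. The median log2 fold change (mean on Ti-TMS-PEI minus mean on Ti-Ref) of all transcript clusters was -0.0075, and 0.03 after the centring.

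Of the 7 genes that rose, SPRY4, DUSP1 and DUSP6 are inhibitors of the ERK cascade, HBEGF is a growth factor, NR4A2 an immediate early gene, PLAUR a protease receptor and BCL7A a chromatin protein. SPRY4, a Sprouty inhibitor of receptor tyrosine kinase signaling at chr5:142310430-142325021 (GRCh38.p14), read 12.36, 12.51, 12.68 and 12.45 on Ti-Ref A to D and 13.53, 13.61, 13.45 and 13.51 on Ti-TMS-PEI A to D. DUSP1, a phosphatase of ERK, p38 and JNK at chr5:172768096-172771195, read 11.88, 12.03, 12.18 and 12.02 on Ti-Ref and 13.01, 12.98, 13.09 and 13.11 on Ti-TMS-PEI. For both genes the lowest coated array lay far above the highest uncoated one, by 0.77 for SPRY4 and 0.80 for DUSP1, and the log2 fold changes were 1.02 (SPRY4, 95% interval 0.79 to 1.26) and 1.02 (DUSP1, 0.79 to 1.25; adjusted p = 0.0240 for both, limma). DUSP6, the cytoplasmic phosphatase that acts on ERK, at chr12:89347235-89352501, was the most uniform of the 9 genes on Ti-Ref, with 12.97, 13, 13.06 and 12.96, and read 13.76, 13.72, 13.71 and 14 on Ti-TMS-PEI. Its log2 fold change was 0.80 (standard error 0.10, adjusted p = 0.0438, limma).

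HBEGF, a membrane-anchored ligand of the EGF receptor that proteases release, at chr5:140332843-140346603, read 9.74, 10.06, 9.97 and 10.15 on Ti-Ref and 10.89, 11.16, 11.19 and 11.57 on Ti-TMS-PEI. NR4A2, an orphan nuclear receptor made as an immediate early gene, at chr2:156324437-156332721, read 5.80, 6.04, 6.03 and 5.40 against 6.94, 6.91, 7.29 and 7.15. PLAUR, the urokinase receptor on the cell surface, at chr19:43646095-43670169, read 11, 11.24, 11.27 and 10.93 against 12.09, 12.33, 12.06 and 12.14. The groups were separate for each, with Ti-TMS-PEI D highest for HBEGF and Ti-Ref D lowest for NR4A2. Log2 fold changes were 1.22 for HBEGF (standard error 0.16), 1.25 for NR4A2 (0.16) and 1.04 for PLAUR (0.12). BCL7A, a subunit of the SWI/SNF chromatin remodeler at chr12:122021884-122062044, had a mean of 5.40 over the 8 arrays, below the median of all transcript clusters (5.83). It read 4.94, 5.07, 4.90 and 5.05 on Ti-Ref and 5.75, 5.78, 5.74 and 5.99 on Ti-TMS-PEI (log2 fold change 0.82, standard error 0.10). Of 24 measured SWI/SNF genes it was the 1 that passed, and the list's median was -0.0475, with ARID1A and BRD9 at -0.25 each.

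Both genes that fell act at the cell membrane. PCDH18, an adhesion protein of the nonclustered protocadherins at chr4:137518918-137532494, read 11.07, 10.84, 11.36 and 11.22 on Ti-Ref and 9.85, 9.95, 10.03 and 10.01 on Ti-TMS-PEI. KCNJ2, an inward rectifier potassium channel at chr17:70169532-70180044, read 7.37, 7.71, 7.76 and 7.90 against 6.51, 6.86, 6.56 and 6.51. All coated arrays were below all uncoated ones, and the log2 fold changes were -1.16 for PCDH18 (95% interval -1.45 to -0.88) and -1.07 for KCNJ2 (-1.39 to -0.76). Their relatives did not pass: of 11 nonclustered protocadherins, PCDH10, dim and with overlapping arrays, was at 0.47 and the list's median at -0.01. In addition, 0 of 13 clustered protocadherins and 0 of 12 classical cadherins had an unadjusted p under 0.05. Of 26 potassium channel genes 2 had higher means at an unadjusted p under 0.05, KCNJ15 (0.70) and KCNG1 (0.54, with overlapping arrays), and 3 had lower means, KCNJ2 and KCNK6 (-0.37) among them.

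**Figure D1:**
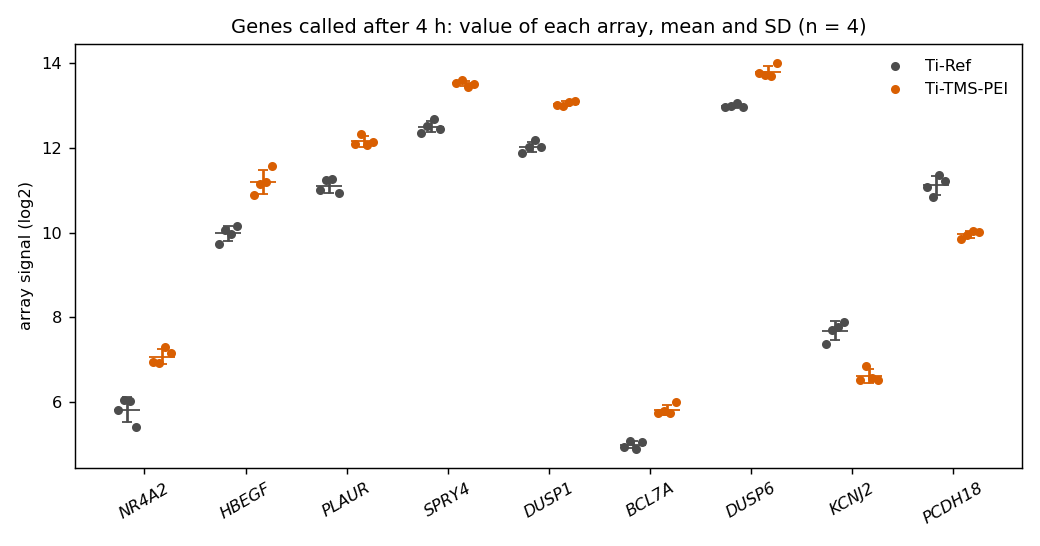
Array signal (log2) of the 9 called genes; grey points are the 4 Ti-Ref arrays and orange points the 4 Ti-TMS-PEI arrays, with the mean as a dash and the SD as an error bar (n = 4). In each gene the points of both surfaces are separate, by 0.51 (KCNJ2) to 0.87 (NR4A2) at the nearest pair.

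Each of the 9 calls was lost when certain single arrays were left out. When Ti-Ref C was left out, SPRY4, DUSP1 and an unnamed transcript cluster were called (3 in all), without Ti-TMS-PEI A 1 unnamed one was, and without any of Ti-Ref A, B or D or Ti-TMS-PEI B, C or D the count was 0 in limma, while 1720 to 2259 transcript clusters still had an unadjusted p under 0.05. With both arrays that stood apart left out, 0 were called as well.

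SPRY4 was the called gene of the ERK target and feedback list. Of its 23 measured genes 20 had a higher mean and 3 a lower one (the lowest at -0.115). At an unadjusted p under 0.05, 13 were higher and 0 lower (56.5%, against 4.40% of all transcript clusters). The arrays were separate for 13, all higher, where 2.98% of all transcript clusters were separate and higher. These counts differ by a gene each way: EPHA4 overlapped, and TNC was separate at a larger p. The median log2 fold change was 0.35, against -0.0075 over all. The lists were written with earlier results of these data known, so these shares are descriptions and give no independent support. SPRY2, another Sprouty inhibitor, read 8.45, 8.66, 8.90 and 8.67 on Ti-Ref and 9.57, 9.51, 9.28 and 9.34 on Ti-TMS-PEI. FOSL1, the FOS family partner in AP-1 that ERK stabilizes, was among the brightest, with 13.84 to 13.97 on Ti-Ref and 14.33 to 14.77 on Ti-TMS-PEI. PHLDA1, a growth factor induced gene, had 11.76 to 12.30 against 12.65 to 12.95. None of these 3 passed the adjusted threshold (adjusted p from 0.0891 to 0.136, limma), although in each the surfaces were separate. The mean over the 23 genes lay between 10.24 and 10.36 in the Ti-Ref arrays and between 10.63 and 10.72 in the Ti-TMS-PEI arrays. Of all 62 lists, 12 had array means that were separate and higher on Ti-TMS-PEI, and 1 had them separate and lower.

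The other lists around ERK were mixed. Of 11 MAP kinase phosphatases, 5 were higher (DUSP1, DUSP6, DUSP5, DUSP7 and DUSP4) and DUSP16 was lower at an unadjusted p under 0.05, with a list median of 0.0525. For this and the next lists, the shares over all transcript clusters were 4.40% higher and 5.06% lower. DUSP5, a nuclear ERK phosphatase, read 9.17, 9.05, 8.74 and 8.98 on Ti-Ref and 9.76, 9.83, 9.57 and 9.74 on Ti-TMS-PEI. DUSP7 also had separate arrays, while DUSP4 and DUSP16 overlapped. Of 29 immediate early genes 12 were higher and 1 lower (list median 0.145), among them IER2 with a log2 fold change of 0.71, EGR1 with 0.76 and FOSL1, and none but NR4A2 was called. Of 15 targets of CREB, the transcription factor activated by cyclic AMP, 6 were higher and 0 lower (median 0.2475): after NR4A2 these were led by the phosphodiesterase PDE4B (0.69), which breaks down cyclic AMP, the small GTPase GEM (0.96) and NR4A1 (0.41). These lists share genes with each other, NR4A2 and FOSL1 included. On the ligand side, of 14 EGF receptor and ligand genes NRG1, a ligand of ERBB receptors, had a higher mean next to HBEGF (0.64, with overlapping arrays). Betacellulin (BTC) had a lower one (-0.48), but it was dim and its arrays overlapped. Of 12 FGF genes 0 were higher and 2 lower, FGF9 (-0.62) and FGFR2 (-0.39), both with overlapping arrays.

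Promoters of 4 of these genes are shown because they hold, before the start site, elements that transcription factors of these pathways are known to bind: the CRE of CREB (TGACGTCA), the AP-1 site of FOS and JUN proteins (TGANTCA) and the CArG box of serum response factor. Both strands were searched in RefSeq windows of 300 bases (250 before to 50 after each start, GRCh38.p14). The stretches below give 40 bases on either side of the match, in capitals, for DUSP1 (chr5:172771273-172771360, minus strand, CRE starting 125 bases before the start), EGR1 (chr5:138465334-138465445, plus strand, CArG boxes at 105 and 83), PLAUR (chr19:43670309-43670395, minus strand, AP-1 site at 186) and CXCL8 (chr4:73740392-73740478, plus strand, AP-1 site at 137).
DUSP1: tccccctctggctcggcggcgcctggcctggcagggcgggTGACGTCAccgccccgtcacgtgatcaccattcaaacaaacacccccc
EGR1: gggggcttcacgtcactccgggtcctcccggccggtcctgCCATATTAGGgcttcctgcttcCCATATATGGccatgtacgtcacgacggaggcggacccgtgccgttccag
PLAUR: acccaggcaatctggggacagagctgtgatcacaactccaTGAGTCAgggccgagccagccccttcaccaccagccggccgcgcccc
CXCL8: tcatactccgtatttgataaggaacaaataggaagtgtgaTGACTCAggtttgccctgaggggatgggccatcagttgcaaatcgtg
The shares of windows with each element were as follows. Of 71 genes with a symbol that were called higher, or were over 1.5-fold higher at an unadjusted p under 0.05 with separate arrays, 55 had a window; 1.27% of their 79 windows held a CRE, 6.33% an AP-1 site and 1.27% a CArG box, against 1.85%, 7.71% and 1.29% of all 35116 windows. These shares were not tested, and a match describes the letters only.

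PLAUR belongs to the plasminogen system, which degrades matrix outside the cell. Of 13 genes of the plasminogen and clotting system 6 were higher (46.2%, against 4.40% of all transcript clusters) and 0 lower at an unadjusted p under 0.05. The median was 0.2625, and in all 6 the surfaces were separate, where 2.98% of all transcript clusters were separate and higher. PLAU, urokinase itself, which turns plasminogen into plasmin, was among the brightest genes, with 15.54, 15.56, 15.51 and 15.63 on Ti-Ref and 16.10, 16.08, 15.93 and 16.02 on Ti-TMS-PEI. PLAT, the tissue plasminogen activator, read 12.45, 12.70, 12.49 and 12.39 against 13.10, 12.90, 12.99 and 12.81, and TFPI2, a protease inhibitor, had a log2 fold change of 0.33. The receptor was called, while the mean of its ligand was higher by 0.47 on the log2 scale (adjusted p = 0.158, limma).

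MMP1, the interstitial collagenase, read 6.94, 7.61, 7 and 7.07 on Ti-Ref and 8.43, 8.14, 8.06 and 8.26 on Ti-TMS-PEI (log2 fold change 1.07, adjusted p = 0.0747, limma). Ti-Ref B was nearest to the coated arrays and still below them. Of 21 matrix proteases and inhibitors 4 were higher and 2 lower at an unadjusted p under 0.05: the aggrecanase ADAMTS4 had a log2 fold change of 0.68 and its relative ADAMTS5 of -0.60, and the inhibitor TIMP1 0.49. These aggrecanases of the same family lay on opposite sides, with separate arrays in both. Of 27 matrix glycoproteins 0 passed an unadjusted p of 0.05, and of 22 collagens 2 were higher and 2 lower.

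Adhesion receptors gave single genes. Of 19 integrin subunits 14 had a higher mean and 5 a lower one, and 3 were higher and 1 lower at an unadjusted p under 0.05 (median 0.055). Of the higher ones, ITGA9 was dim and had overlapping arrays (0.54). ITGA2, the collagen-binding alpha subunit, read 9.75, 10.02, 10.26 and 10.07 on Ti-Ref and 10.56, 10.56, 10.80 and 11.29 on Ti-TMS-PEI. ITGA6, the laminin-binding subunit, was at 7.55 to 7.83 against 8.02 to 8.09, and ITGA4, which binds fibronectin and VCAM1, was at 9.42 to 9.69 against 9 to 9.19. ITGA2, ITGA6 and ITGA4 had separate arrays, with adjusted p from 0.215 to 0.263 (limma). Among 23 focal adhesion genes the docking protein NEDD9 was at -0.69, its relative BCAR1 at 0.50 and LIMS2 at -0.41.

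**Figure D2:**
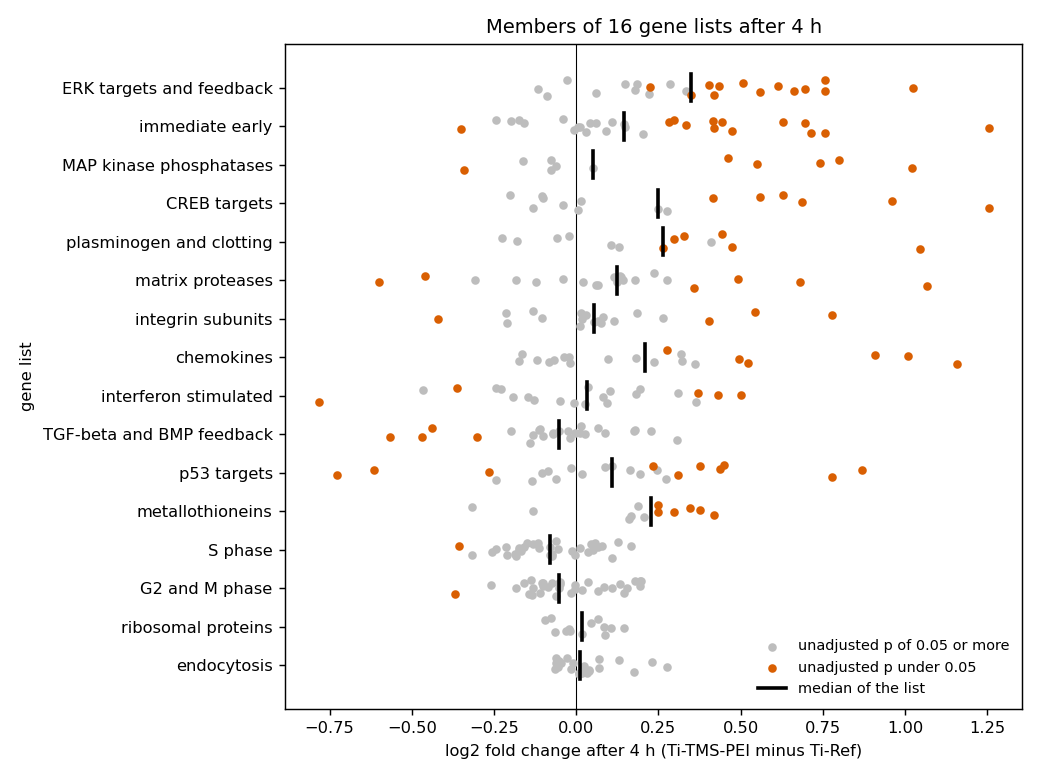
Log2 fold change after 4 h (Ti-TMS-PEI minus Ti-Ref) of each member of 16 gene lists; orange points have an unadjusted p under 0.05, grey points do not, and the black bar is the median of the list. ERK targets lie furthest to the right (median 0.35), while ribosomal and endocytosis genes sit around 0 with 0 members at an unadjusted p under 0.05. The lists were chosen with earlier results of these data known.

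Of 20 chemokine genes 12 had a higher mean and 8 a lower one, and 6 were higher and 0 lower at an unadjusted p under 0.05 (median 0.2087). CXCL8, which attracts neutrophils, read 8.77, 9.48, 9.39 and 9.04 on Ti-Ref and 9.94, 10.19, 10.23 and 10.35 on Ti-TMS-PEI. CXCL10, which is best known as an interferon target, read 5.34, 5.45, 5.71 and 5.86 against 6.62, 6.56, 6.66 and 7.15. The surfaces were separate for both, with log2 fold changes of 1.01 (CXCL8, adjusted p = 0.0941, limma) and 1.16 (CXCL10, adjusted p = 0.0620). CXCL11 (0.52) and CCL20 (0.91) had overlapping arrays, and CCL20 ranged from 5.01 to 6.24 on Ti-Ref and from 5.72 to 7.17 on Ti-TMS-PEI.

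Interferon and NF-kappaB genes were mixed in direction. Of 22 interferon-stimulated genes 3 were higher and 2 lower (median 0.03). IRF1, a transcription factor that activates interferon targets, read 9.43, 9.68, 9.66 and 9.58 on Ti-Ref and 8.49, 8.96, 8.86 and 8.91 on Ti-TMS-PEI, a log2 fold change of -0.78 (adjusted p = 0.0873, limma). All its coated arrays were below the uncoated ones, as were those of MAP3K14, the kinase of the noncanonical NF-kappaB route, with 8.56, 8.79, 8.71 and 8.49 against 7.77, 7.80, 7.60 and 8.03. The sensor RIGI was at 0.43, OAS3 at -0.36 and OAS2, with overlapping arrays, at 0.50. Of 18 NF-kappaB feedback genes 3 were higher and 1 lower, with the subunit REL at -0.45, IRAK2 at 0.40 and the adhesion molecule ICAM1 at 0.58. IRAK2 and ICAM1 had overlapping arrays, and 0 genes of the list were higher with separate arrays. LIF, a cytokine of the IL-6 family, was at 13.10 to 13.51 on Ti-Ref and 13.84 to 14.16 on Ti-TMS-PEI, and SOCS1, an inhibitor of cytokine receptors, at 0.36 on the log2 scale. PTGS2, the inducible enzyme of prostaglandin synthesis, read 11.27, 11.49, 11.68 and 11.67 against 12.01, 12.26, 12.78 and 12.48, while of the 15 prostaglandin genes only the receptor PTGFR (0.29) was also higher at an unadjusted p under 0.05.

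Of 25 TGF-beta and BMP feedback genes 0 were higher and 4 lower at an unadjusted p under 0.05 (5.06% of all transcript clusters were lower), and these were ID2, ID1, the BMP antagonist noggin (NOG) and BMP4. ID2, a helix-loop-helix inhibitor that BMP signaling induces, read 7.46, 7.50, 7.78 and 7.60 on Ti-Ref and 6.99, 7.03, 7.15 and 6.90 on Ti-TMS-PEI. ID1 had a log2 fold change of -0.47, and Ti-TMS-PEI A, at 10.35, overlapped the uncoated arrays while the other 3 were at 9.70 to 9.92. NOG and BMP4 were dim and overlapped. The list's median was -0.0525, and it was 0.02 without Ti-Ref C, so the sign of the median depended on that array. The mean over the 25 genes was narrowly separate, from 8.947 to 9.008 on Ti-TMS-PEI and from 9.011 to 9.115 on Ti-Ref. Ti-Ref C had the highest of these means, so their separation did not depend on that array. The nearest means, 9.008 and 9.011, lay closer together than the array medians (5.79 to 5.86). The separation may therefore not hold under another scaling. EDN1, endothelin-1, a peptide that also acts on bone cells, read 8.99, 9.55, 9.22 and 9.01 against 8.47, 8.17, 8.39 and 8.48.

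CDKN1A, the inhibitor p21 of cyclin-dependent kinases, read 12.37, 12.30, 12.77 and 12.49 on Ti-Ref and 13.25, 13.30, 13.27 and 13.58 on Ti-TMS-PEI. GADD45B, a stress-induced gene of the same p53 list, had lower values, with 9.15, 9.18, 9.37 and 9.15 against 8.49, 8.27, 8.54 and 8.64. The log2 fold changes were 0.87 (CDKN1A, adjusted p = 0.0748, limma) and -0.73 (GADD45B, adjusted p = 0.0846), and both had separate arrays. The proapoptotic PMAIP1 (0.78) and the kinase PLK2 (-0.61) were split in the same way, and of 23 p53 targets 7 were higher and 3 lower. Among 22 genes of the G1 phase, E2F3 was at 0.59 and the arrest genes RBL1 (-0.34) and CDKN1B (-0.41) were lower in mean. Few replication and division genes stood out: 1 of 34 S phase genes (POLE, -0.35) and 1 of 34 G2 and M phase genes (CKS2, -0.37) had an unadjusted p under 0.05, with medians of -0.08 and -0.05.

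In addition to the lists, 30 genes were named by rank, 10 of them already described (CXCL10, CXCL8, MMP1, CDKN1A, DUSP5, SPRY2, GADD45B, IRF1, MAP3K14 and EDN1), the 15 in each direction with the smallest p among those over 1.5-fold with separate arrays that did not pass the adjusted threshold. The background was 115 transcript clusters (0.536%) over 1.5-fold higher at an unadjusted p under 0.05 and 195 (0.909%) lower. After centring each array, 51.8% of such transcript clusters were higher, against 37.1% as deposited. Of the 310, 69.6% of the higher and 52.8% of the lower ones had separate arrays. FRMD4A, a scaffold of cell polarity, read 11.94, 11.96, 12.14 and 11.85 on Ti-Ref and 12.72, 12.58, 12.79 and 12.76 on Ti-TMS-PEI, and LURAP1L read 8.46, 8.19, 8.60 and 8.28 against 9.94, 9.14, 9.60 and 9.81. ANGPTL4, a secreted inhibitor of lipoprotein lipase, read 5.38, 5.91, 5.85 and 5.59 against 6.88, 6.51, 6.57 and 6.79. LURAP1L had the widest coated spread of these 3 (SD 0.35) and the largest log2 fold change of the 15 (1.24, adjusted p = 0.0620, limma).

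The rest of the higher 15 had log2 fold changes from 0.65 to 1.16. CH25H, which makes 25-hydroxycholesterol, was at 0.94, PRICKLE1 of planar cell polarity at 0.92, the BCL2 family survival protein BCL2A1 at 0.80, the cartilage transcription factor SOX9 at 0.76, the ion channel MCOLN2 at 0.74 and the clock repressor NR1D1 at 0.65. SOX9 was bright on both surfaces, with 12.14, 12.26, 12.38 and 12.45 on Ti-Ref and 13.30, 12.96, 12.97 and 13.02 on Ti-TMS-PEI, and Ti-TMS-PEI A was its highest array. MCOLN2 was dim throughout, from 2.81 to 3.90. Of 17 circadian genes NR1D1 and BHLHE40 (0.39, with overlapping arrays) were higher at an unadjusted p under 0.05.

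Among the lower 15, FAT4, a giant cadherin that acts as a ligand in planar polarity, read 9.28, 9.39, 9.24 and 8.99 on Ti-Ref and 8.68, 8.47, 8.44 and 8.25 on Ti-TMS-PEI. MIR99AHG, the host transcript of a microRNA cluster, read 9.54, 9.82, 9.54 and 9.52 against 8.94, 9.07, 8.96 and 9.02, the most uniform of the 15 on the coating. LRIG3, a membrane protein of a family that modulates growth factor receptors, read 10.42, 10.87, 10.71 and 10.41 against 9.93, 9.69, 9.97 and 9.93. In each the groups were apart, and the log2 fold changes were -0.77 (FAT4), -0.61 (MIR99AHG) and -0.72 (LRIG3). The kinases DCLK2 (-0.80) and PIM1 (-0.74), the mRNA decapping scaffold EDC4 (-0.73), RNPC3 of the minor spliceosome (-0.70) and the zinc transporter SLC39A8 (-0.75) were similar in size. RFTN2 (-0.76), GLYATL3 (-0.80) and the meiotic helicase HFM1 (-0.69) completed the 15, and RFTN2, SLC39A8 and HFM1 had means below the median signal of all transcript clusters on both surfaces.

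**Figure D3:**
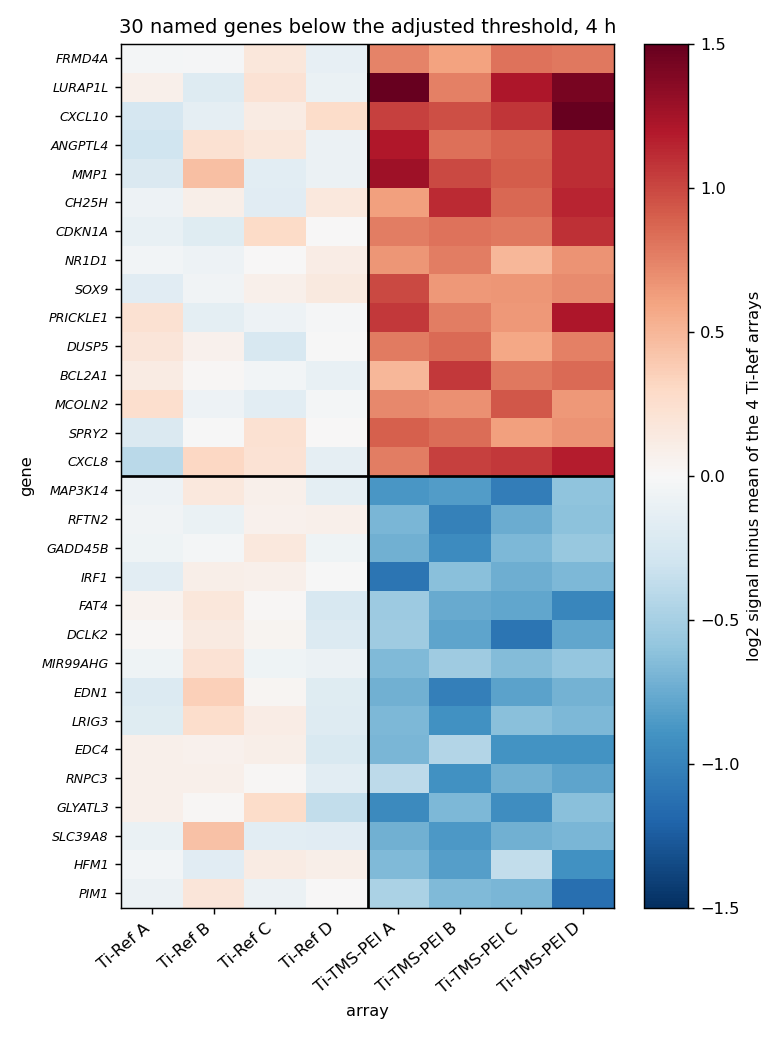
Log2 signal of 30 named genes below the adjusted threshold, minus the mean of the 4 Ti-Ref arrays (colour), with genes in rows and the 8 arrays of 4 h in columns; red is higher and blue lower than Ti-Ref. The rule chose genes with separate arrays, so the change of colour at the line between the surfaces is part of the choice, and the shades within a surface show how the arrays vary, as for LURAP1L from 9.14 to 9.94 on Ti-TMS-PEI.

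How far small shifts agreed over the arrays was counted for all transcript clusters. Ti-Ref and Ti-TMS-PEI arrays were separate for 1238 of them (5.77%), with Ti-TMS-PEI higher in 640 (2.98%) and lower in 598 (2.79%). With so few arrays for each surface, some transcript clusters are separate by chance, without any coating effect. How many of the 1238 were such cases was not tested, so the 5.77% share includes an unknown part from chance. The share grew with the size of the shift: 0.245% below an absolute log2 fold change of 0.1, 2.52% from 0.1 to 0.2, 7.40% from 0.2 to 0.3, 21.3% from 0.3 to the 1.5-fold limit, 49.2% of 325 from there to 1 and 79.3% of 29 above 1. The shift and the separation were taken from the same array values, so a rise of this kind is built into the count. Most transcript clusters with separate arrays were under 1.5-fold, 621 of them between 0.3 and that limit alone. Separate arrays were most common in the brightest 25% of transcript clusters (9.40%) and least in the dimmest 25% (3.34%). Fold changes over 1.5 were least common in the brightest 25% (0.672%) and most common in the bin just above the dimmest (2.65%). The median SD between arrays was 0.13 in the brightest bin and 0.28 in the bin just above the dimmest.

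**Figure D4:**
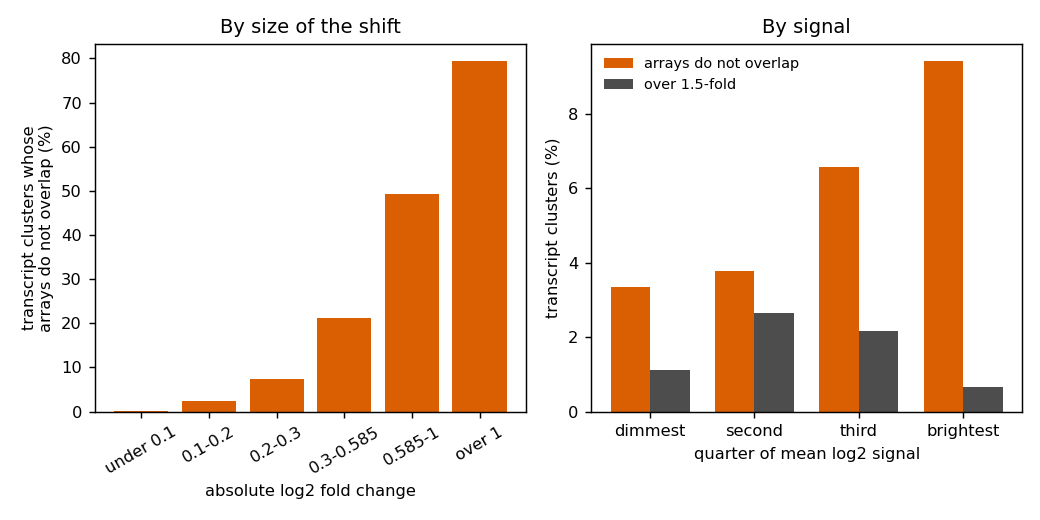
Left, the percentage of transcript clusters whose Ti-Ref and Ti-TMS-PEI arrays did not overlap, by absolute log2 fold change; right, in 4 equal bins of mean log2 signal, the percentage with separate arrays (orange) and with a fold change over 1.5 (grey). The share with separate arrays rises from 0.245% to 79.3% with the size of the shift, which is built in, since both come from the same values. Bright genes have separate arrays more often (9.40%) at fewer large folds (0.672%).

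Metallothioneins are small metal-binding proteins induced by zinc and other metals. Of 12 measured genes 6 were higher and 0 lower at an unadjusted p under 0.05 (median 0.2275): MT1F had a log2 fold change of 0.38, MT1B of 0.30, MT1H of 0.42 (with overlapping arrays) and MT1M of 0.25. MT1B read 15.92, 15.97, 15.92 and 15.93 on Ti-Ref and 16.03, 16.26, 16.31 and 16.33 on Ti-TMS-PEI. The genes of this family are nearly identical in sequence, so their probes may share signal and the 6 are not separate observations. The blood cell list had 3 higher and 1 lower of 16, namely HBA1 (0.72), HBA2 (0.61), CD68 (0.37) and HBD (-0.34). HBA1 and HBA2 encode the same protein, and both had means below the median signal of all transcript clusters. The 16 markers spanned means from 2.49 to 9.73 (CD68), and the part of other cells in the results was not tested. The osteoblast genes moved little: of 20, ANKH, a pyrophosphate transporter, was at 0.34 and PTH1R, dim and with overlapping arrays, at -0.46, and 0 were called. Lists with 0 members at an unadjusted p under 0.05 were 9 of 62, among them 22 genes of endocytosis, 31 replication histones, 22 mitochondrial respiration genes and 13 ribosomal proteins.

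At 24 h, 742 transcript clusters (3.46%) were called higher and 577 (2.69%) lower on Ti-TMS-PEI. Levels of both times came from separate normalizations, so each comparison below is a difference within a time. Of the 115 higher at 4 h, 25 were called higher (21.7%) and 4 lower (3.48%) at 24 h. Of the 195 lower at 4 h, 8 were called lower and 8 higher (4.10% each). For the lower set both shares were near the background of 24 h, and for the higher set the share called higher was above it; these shares were not tested. No arrays are shared between the times.

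Of the 39 named genes, 14 were called at 24 h in the direction they had at 4 h. Of the 9 called genes these were NR4A2 (1.78 at 24 h), PLAUR (0.90), DUSP1 (0.65) and KCNJ2 (-1.17), while SPRY4 stayed under 1.5-fold (0.57) and DUSP6 (0.19), HBEGF (0.29), BCL7A (-0.01) and PCDH18 (0.24) did not pass. MMP1 had 1.07 at 4 h and 4.72 at 24 h, the largest log2 fold change of the 39. CDKN1A had 0.87 and 2.51, LURAP1L 1.24 and 2.31, and ANGPTL4 1.0 and 1.97. The others called in the same direction were NR1D1, DUSP5 and BCL2A1 (higher) and EDN1 (-2.0), FAT4 (-1.01) and GADD45B (-0.71). A pair was called in the opposite direction, CXCL10 (-1.84) and RFTN2 (1.67). The test of the difference between the times, an interaction over all 15 arrays in limma, passed for 17 of the 39. Among them PCDH18, which fell at 4 h, differed by 1.41 (adjusted p = 0.000274), MMP1 by 3.65 (adjusted p = 3.82e-06) and CXCL10 by -3.00 (adjusted p = 0.000159).

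**Figure D5:**
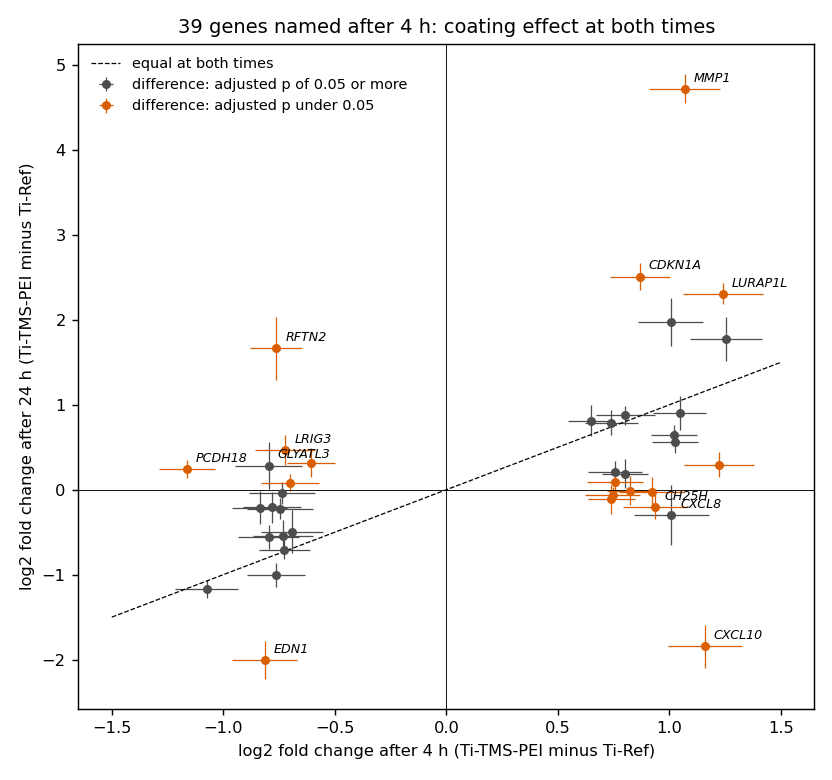
Log2 fold change of the 39 named genes after 4 h (horizontal) and after 24 h (vertical), with standard errors as bars; orange points have an adjusted p under 0.05 for the difference between the times and the dashed line marks equal effects. MMP1 lies at 1.07 and 4.72, CXCL10 at 1.16 and -1.84, and PCDH18 at -1.16 and 0.24.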

How the data were processed

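Clariom S arrays measured RNA of the cells attached to the chips after 4 h, 4 arrays for each surface, and 7 arrays of 24 h were used for comparison. The authors made the values with RMA in the Transcriptome Analysis Console (background adjustment, signal space transformation, quantile normalization), and deposited them as log2 signals, used here unchanged. Arrays have no read depth; the number of arrays limits the precision.

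In R 4.3.3, limma 3.58.1 fitted the 8 arrays with the coating as the only term; p-values were adjusted by Benjamini-Hochberg over 21448 transcript clusters. The 24 h arrays had their own fit, and the difference between times an interaction over 15 arrays. Arrays did not overlap where the lowest value of a surface exceeded the highest of the other. Symbols came from the platform annotation; 3739 transcript clusters without 1 symbol were tested but not named. Named genes were every called gene, 15 in each direction by p (over 1.5-fold, unadjusted p under 0.05, separate arrays), up to 4 members per list by p, osteoblast markers, and members set against them. The members and the 62 lists were chosen with earlier results of these data known. Lists were described by counts and medians, with no set test. Figures used matplotlib 3.10.9 and tables pandas 2.3.3. The fit was tested on simulated data. Letters A to D were not used to pair arrays, because deviations of same-letter arrays from their group means correlated between -0.03 and 0.05. Alternatives were a replicate block, other variance models, array weights, other scalings, removal of dim transcript clusters, other thresholds, leaving out arrays, and keeping the brightest transcript cluster of each gene.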

Additional observations from a re-analysis of the deposited data

Results flagged for a closer look

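In 13 of 252 groups of 4 arrays looked at, among 114 named genes and 12 list means, 1 array stood far from the other 3, and chance gives about 1 in 20. On Ti-Ref these were array C for GADD45B (9.37, the others 9.15 to 9.18) and ADAMTS5 (8.52, the others 8.23 to 8.25), array B for MIR99AHG (9.82) and SLC39A8 (5.30), array D for EDC4 (7.93) and array A for OAS3 (9.97) and CDKN1B (10.35). On Ti-TMS-PEI they were array D for BCL7A (5.99), CXCL10 (7.15) and CDKN1A (13.58), and array B for KCNJ2 (6.86), LRIG3 (9.69) and BMP4 (3.51).

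The coating effect differed between the times (interaction in limma, adjusted p under 0.05) for 47 of the 114 genes, and for 28 of these it had opposite signs at 4 h and 24 h. Differences are given as the log2 fold change at 24 h minus that at 4 h. Genes with a higher mean at 4 h and a larger increase at 24 h were MMP1 (3.65), PTGS2 (2.65), CA12 (2.54), EGR1 (1.89), BHLHE40 (1.68), ITGA2 (1.66), CDKN1A (1.64), GEM (1.64), NR4A1 (1.45), LURAP1L (1.07), PLAT (1.02), TFPI2 (0.99), CD68 (0.85) and ANKH (0.63).

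A higher mean at 4 h was followed by a lower one with an adjusted p under 0.05 at 24 h for CXCL10 (-3.00), ASNS (-1.71), SLIT2 (-1.5), OAS2 (-1.45), PTGFR (-1.30), EPHA2 (-1.25) and DUSP7 (-1.06). For others with a higher mean at 4 h the effect at 24 h did not pass: PMAIP1 (-1.29), CH25H (-1.14), NRG1 (-1.08), FOSL1 (-1.04), KCNG1 (-1.01), PRICKLE1 (-0.95), HBEGF (-0.93), CXCL11 (-0.89), E2F3 (-0.88), FRMD4A (-0.85), BCL7A (-0.84), PDE4B (-0.82), MCOLN2 (-0.80), SEMA4B (-0.73) and SPRY2 (-0.66). Among genes with lower means at 4 h, the difference was above 0 for RFTN2 (2.43), ID2 (1.97), PCDH18 (1.41), LRIG3 (1.19), ID1 (1.09), KCNK6 (1.04), MIR99AHG (0.93), LIMS2 (0.85) and RNPC3 (0.78), and below 0 for EDN1 (-1.19) and PLK2 (-0.93).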

How the results depend on the processing

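The count of called transcript clusters after 4 h, 9, was the least stable result. It was 0 with a replicate block (letters A to D paired across surfaces), 0 without both arrays that stood apart, 15 with each array centred on its median, 24 without the dimmest 25 percent of transcript clusters, 36 at an adjusted p under 0.1, 62 with the spread of all 15 arrays and 83 with a trended and robust variance, and 0 to 3 without 1 array. With array weights it was 11, and with a second quantile normalization 9, of which 7 were among the 9 genes. The number over 1.5-fold at an unadjusted p under 0.05 (310) was 499 without both arrays and 339 to 476 without 1 array (476 without Ti-Ref D). The number with separate arrays (1238) was 3391 without both arrays and 1801 to 2346 without 1, since fewer arrays overlap less often. The cause of the other shifts was not tested. The replicate block left 2011 transcript clusters at an unadjusted p under 0.05 (2029 without it).

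Among the 39 named genes, 0 of 622 values under an alternative changed sign, which the choice of genes with separate arrays fixes when arrays are left out. DUSP1 and SPRY4 were called under 7 of 16 alternatives each and the other 7 called genes under 5 or 6. Of 204 list medians 21 moved by more than the SD between arrays. The median of ERK targets stayed between 0.32 and 0.42, that of CREB targets between 0.08 and 0.31, that of MAP kinase phosphatases between 0.03 and 0.26, and that of TGF-beta and BMP genes between -0.06 and 0.02. The named genes called at 24 h in the same direction numbered 12 to 16 without 1 array of 24 h, and 14 with all 15 arrays. HFM1 and MCOLN2 were below the limit when the dimmest 25 percent were removed. With 4 arrays a group, the number of arrays limits the precision of every value.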

Other observations

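Guidance and metabolic genes not described above had single members with separate arrays. Of 31 axon guidance genes 6 were higher and 1 lower at an unadjusted p under 0.05 (19.4% and 3.23%, against 4.40% and 5.06% of all transcript clusters). SEMA4B, a membrane semaphorin, read 10.87, 10.93, 10.77 and 10.44 on Ti-Ref and 11.83, 11.69, 11.40 and 11.31 on Ti-TMS-PEI, the receptor tyrosine kinase EPHA2 had a log2 fold change of 0.42, the plexin PLXNA1 of 0.36 and the secreted SLIT2 of 0.41. All 4 had separate arrays and none passed the adjusted threshold. At 24 h EPHA2 (-0.83) and SLIT2 (-1.09) were called lower.

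Of 16 hypoxia genes VEGFA (0.53) and CA12 (0.31) were higher, and of 20 glycolysis genes PFKFB3 (0.38) and HK2 (0.51), while the medians of both lists were 0.06 and 0.0063. In the ATF4 stress list (21 genes), STC2, a secreted glycoprotein, read 11.46, 11.36, 11.30 and 11.36 on Ti-Ref and 10.81, 10.75, 10.88 and 10.74 on Ti-TMS-PEI, with a log2 fold change of -0.57 just under 1.5-fold (adjusted p = 0.0873, limma). ASNS, asparagine synthetase of the same list, was at 0.66 after 4 h and -1.04 after 24 h.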
